A study of Mus musculus with 16 samples.

Results

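The genes described here are 40 cell cycle genes of the mouse, of which 16 serve DNA replication and 24 serve mitosis. They were taken by symbol from a table of read counts over 45664 gene entries. All 40 symbols were present, and all 40 had enough counts to be tested. The replication genes are Mcm2, Mcm3, Mcm4, Mcm5, Mcm6, Mcm7, Pcna, Rrm1, Rrm2, Tyms, Cdc6, Cdt1, Gins2, Uhrf1, Ccne1 and Ccne2. The mitosis genes are Mki67, Top2a, Plk1, Birc5, Ccna2, Ccnb1, Ccnb2, Cdk1, Cdc20, Bub1, Bub1b, Aurka, Aurkb, Kif11, Kif20a, Kif23, Cenpe, Cenpf, Nusap1, Tpx2, Prc1, Ube2c, Ttk and Foxm1.

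Bulk RNA was read from 4 sorted populations of untreated C57BL/6 mice aged 8 to 10 weeks, with 4 libraries each. These were bone marrow monocytes (CD45+CD11b+CD115+Ly6C+), cornea macrophages (CD45+CD11b+CD64+F4/80+), retinal microglia (CD45+CD11b+) and brain microglia (CD45+CD11b+). Each cornea and each retina sample pooled 10 mice, and the pool size of the brain and marrow samples is unknown, because their descriptions name retinal microglia against their own titles. Corneal tissue went through collagenase D at 37 °C, whereas retinal tissue was broken up mechanically in the cold. Levels are CPM, which are counts scaled to the size of the library, after TMM scaling, and n = 4 libraries per population throughout. The titles of libraries 3 and 4 of the marrow and of the brain carry different number ranges, whose meaning is not stated. Those of marrow and brain libraries 1 and 2 carry none, and those of retinal libraries 2 and 4 carry other ranges. All retinal titles and that of cornea library 1 hold a further number of unstated meaning, which in retinal library 2 differs from the other retinal libraries. The titles of cornea library 1 and retinal libraries 1 and 3 repeat the leading number of cornea library 2 and retinal libraries 2 and 4, without the letter b, so these may not be separate samples. The counts of these pairs differed by more than sampling noise (chi-square per degree of freedom 24.3 in the cornea, 29.4 and 105 in the retina), and each library was counted. Every other pair within a population did so too, so this cannot show that they are separate samples. Cornea libraries 1 and 2 were the most alike of the cornea pairs (others 27.1 to 76.2). Retinal libraries 1 and 2 were the most alike of the retinal pairs (others 32.1 to 105). The p-values measure the spread between the libraries, which may in part be technical.

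Replication of DNA is prepared in G1, when the ring of the Mcm2 to Mcm7 helicase is loaded onto origins by Cdc6 and Cdt1, and it is started in S phase by the kinases of cyclin E and by the GINS complex. Mitosis follows under Cdk1 with cyclins A and B, Polo and Aurora kinases, a spindle of microtubules and kinesin motors, and a checkpoint that holds back the Cdc20 form of the anaphase-promoting complex. Transcripts of the replication group are known to rise at the border of G1 and S under E2F factors, and those of the mitosis group in G2 and M under the MuvB complex with Mybl2 and Foxm1. Ly6C+ monocytes of the marrow arise from dividing precursors, whereas microglia of the adult brain are known to renew slowly.

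Total counts lay between 8677418 and 21756558 per library. The defining markers of each population followed its label: the summed level of 6 microglial markers was 20795 to 27261 CPM in retinal and 34686 to 38518 CPM in brain microglia, and that of 6 monocyte markers was 12075 to 15975 CPM in monocytes. Markers of other cells were present too. Summed levels of 10 haemoglobin and other erythroid markers were 2526, 1651, 478 and 380 CPM in monocyte libraries 1 to 4, those of 8 granulocyte markers, some of which monocytes also express, were 10121, 5939, 5616 and 7468 CPM, and those of 10 progenitor markers 1040, 503, 515 and 672 CPM. The progenitor sum was 18.3 to 23.9 CPM in cornea macrophages, 514 to 612 CPM in retinal and 566 to 666 CPM in brain microglia. Its ranges in monocytes and both microglia thus overlapped. Elane and Ms4a3 were detected in monocytes and were at 0 in cornea macrophages, retinal microglia and brain microglia. Keratocyte markers (7 genes) summed to 1390 to 2593 CPM and corneal epithelial markers (8 genes) to 230 to 1324 CPM in cornea libraries, and photoreceptor markers (8 genes) to 3323, 2051, 748 and 6865 CPM in retinal libraries 1 to 4. Per the column headers, sequencing lane 2 held all retinal libraries, cornea libraries 1 to 3 and monocyte library 1, and lane 3 held cornea library 4, monocyte libraries 2 to 4 and every brain library.

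Mitosis transcripts separated most pairs of populations more widely than replication transcripts. Cornea macrophages and retinal microglia were the exception, with a median log2 fold change of 0.02 over mitosis and 0.98 over replication members. The 24 mitosis members together held 2845, 2109, 2383 and 2461 CPM in the monocyte libraries, 405, 405, 461 and 295 CPM in the cornea libraries, 229, 288, 206 and 138 CPM in the retinal libraries and 38.9, 31.6, 16.7 and 30.1 CPM in the brain libraries. After TMM scaling, no library of a population overlapped with a library of another. Cornea library 4 (295 CPM) and retinal library 2 (288 CPM) were close, with TMM factors of 0.693 and 1.19, so their order depends on the scaling. Mki67 alone made up 23.8% to 43.9% of the cornea sum and 9.83% to 24% of the retinal sum. It had 173, 165, 202 and 70 CPM in the cornea libraries and 38.1 CPM in retinal library 2. With Mki67 taken off, the sums of cornea macrophages and retinal microglia overlapped. The 16 replication members together held 1142, 901, 855 and 1068 CPM in the monocyte libraries, 465, 479, 458 and 474 CPM in the cornea libraries, 221, 286, 246 and 219 CPM in the retinal libraries and 244, 235, 234 and 220 CPM in the brain libraries. Here retinal and brain libraries overlapped. Mcm3 and Rrm1 were large parts of these sums, with means of 71 and 45.5 CPM in brain and 54.6 and 32.6 CPM in retinal microglia. With both taken off, every retinal library lay above every brain library, and the median log2 fold change of replication members, retina over brain, was 0.33. Over all 16 members, brain microglia held about as much replication transcript in sum as retinal microglia, but much less mitosis transcript. Fewer dividing cells and less RNA per cell cannot be told apart in such bulk samples.

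**Figure D1:**
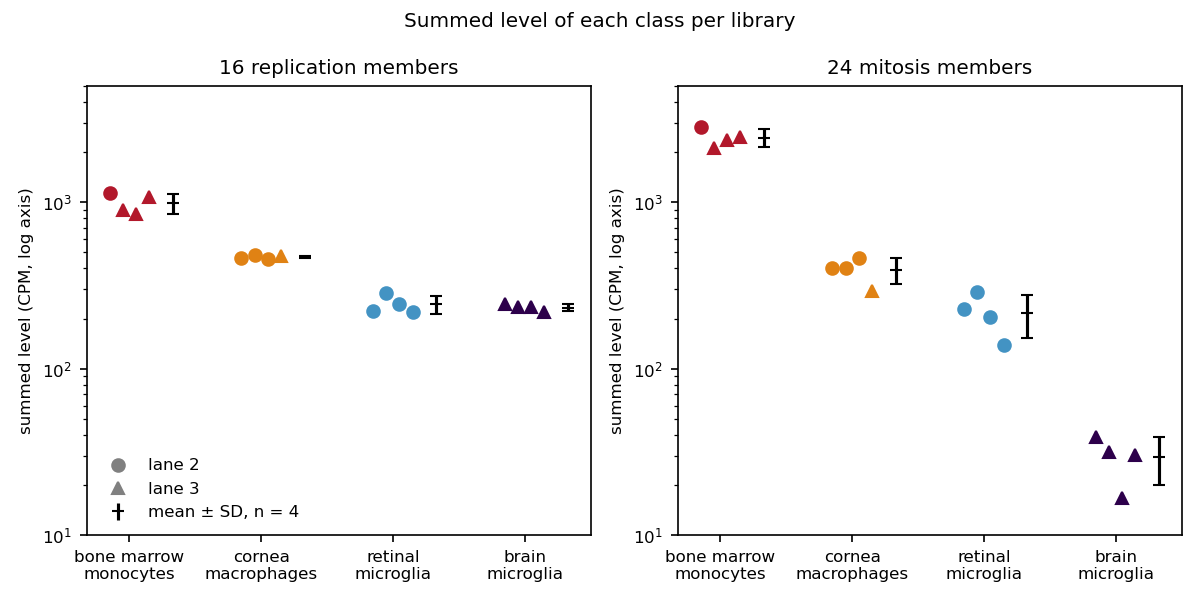
Summed level (CPM, log axis) of the 16 replication members (left) and the 24 mitosis members (right) in each of 16 libraries, with circles for lane 2, triangles for lane 3 and the mean ± SD of 4 libraries beside them. The mitosis sum lies between 2109 and 2845 CPM in monocytes and between 16.7 and 38.9 CPM in brain microglia, whereas the replication sums of retinal and brain microglia overlap.

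The balance of both classes also differed between populations. The mitosis sum divided by the replication sum was 2.48 ± 0.219 in monocytes, 0.836 ± 0.16 in cornea macrophages, 0.877 ± 0.185 in retinal microglia and 0.126 ± 0.0379 in brain microglia (SD, n = 4 each). Its ranges in cornea macrophages (0.622 to 1.01) and retinal microglia (0.632 to 1.03) overlapped. The median replication member lay below the median mitosis member in monocytes, by a difference of -0.88 ± 0.18 in log2 CPM. It lay above in cornea macrophages (1.31 ± 0.14), retinal microglia (0.74 ± 0.19) and brain microglia (3.11 ± 0.67). Each of the 4 libraries of a population had the sign of its mean. Per kilobase of gene length, which allows levels of different genes to be compared, the median replication member had 13.3, 5.00, 2.95 and 2.09 CPM per kb in monocytes, cornea, retina and brain, and the median mitosis member 20.6, 1.90, 1.95 and 0.206 CPM per kb. In brain microglia the most abundant replication member was Mcm3 with 18.9 CPM per kb, and the most abundant mitosis member was Cdk1 with 1.41 CPM per kb.

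Order over the 4 populations was uniform for mitosis members. All 24 were highest in monocytes and lowest in brain microglia by their means, and 12 were higher in cornea than in retina while 12 were higher in retina than in cornea. Of the 16 replication members, 12 were highest in monocytes and 10 were lowest in brain. The exceptions were Mcm3, Pcna and Cdt1, which were highest in cornea macrophages, and Tyms, which was highest in retinal microglia. The ratio of the monocyte mean to the brain mean had a median of 4.79 over replication members (from 1.18 for Mcm3 to 207 for Rrm2) and of 94.8 over mitosis members (from 12.9 for Cdk1 to 406 for Kif23).

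**Figure D2:**
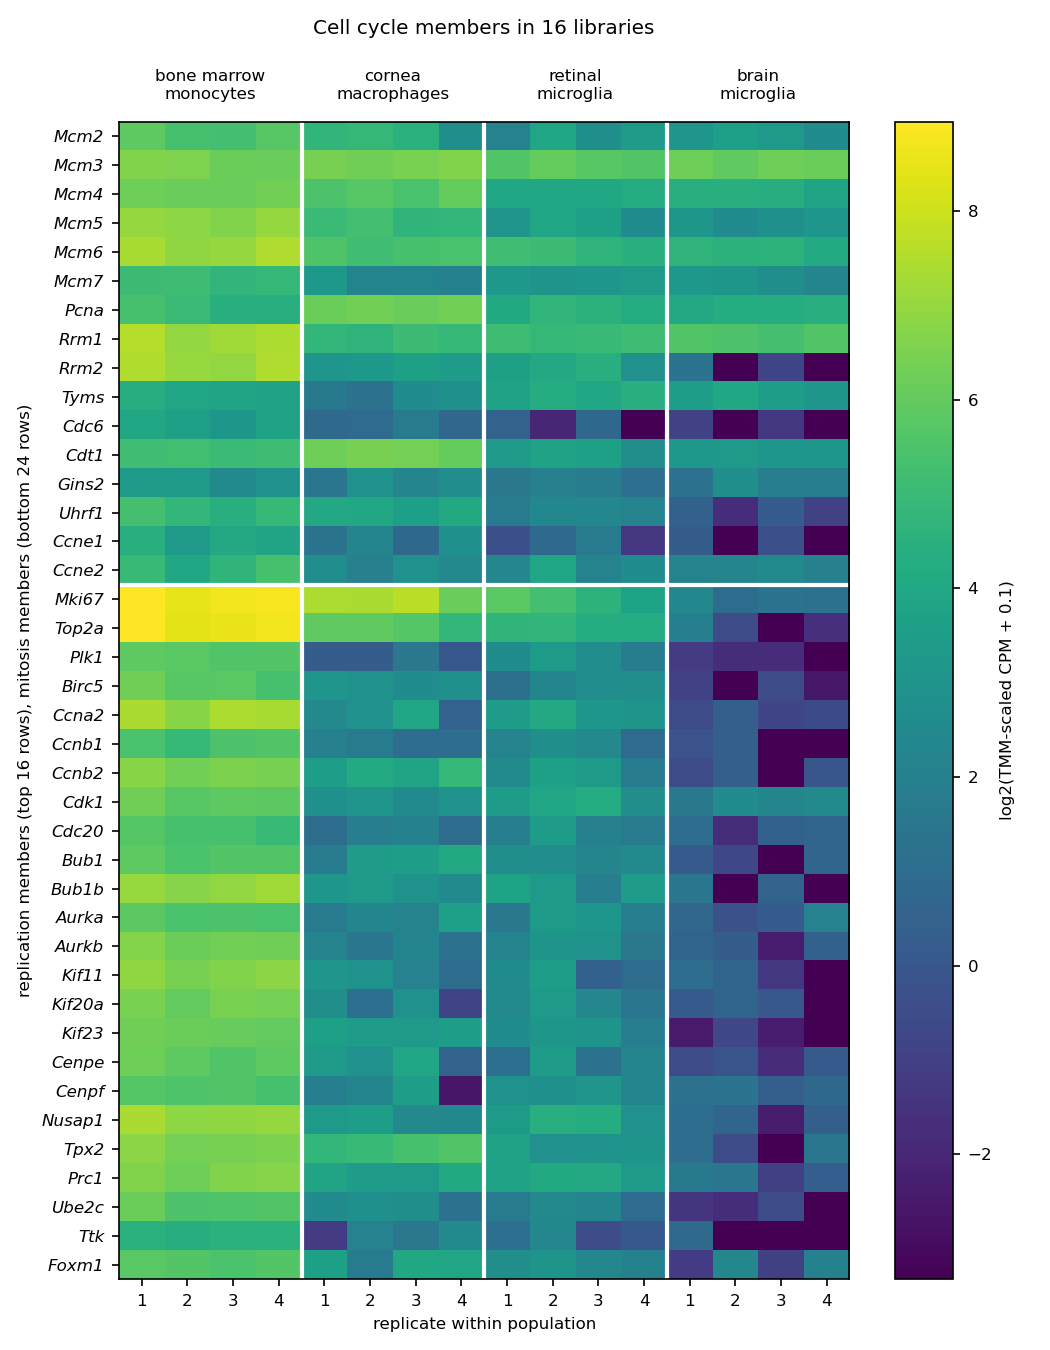
Level of each member, as log2(CPM + 0.1), in 16 libraries grouped by population, with replication members in the top 16 rows and mitosis members in the bottom 24 rows. By their mean CPM, mitosis rows are highest in monocytes and lowest in brain microglia in all 24 cases. Single libraries of cornea or retina can overlap with brain, as for Cenpf (0.0664 CPM in cornea library 4, 1.19 to 2.44 CPM in brain). Rows such as Mcm3 and Rrm1 stay bright in all populations.

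Because the classes move apart, the promoters of members were read for the short elements for which each class is known. RefSeq promoters on build GRCm38.p6, with 250 bases before and 50 after the start of transcription, were on hand for 32 of the 40 members (13 replication, 19 mitosis). The CHR element (TTTGAA or TTCGAA), at which the MuvB complex is known to bind, was found on either strand in 15 of 19 mitosis and 2 of 13 replication promoters, against 19.2% of all 32851 promoters of the same length. A CCAAT box, the site of NF-Y, was found in 17 of 19 mitosis and 9 of 13 replication promoters, against 37.4% of all. An E2F element, counted as the letters TTCCCGC, as the related form TTCGCGC, as the variant TTGCCGC or as the variant TTGGCGC, was found in 3 of 19 mitosis and 9 of 13 replication promoters, against 9.57% of all. CHR and CCAAT stood together in 15 of 19 mitosis and 2 of 13 replication promoters, against 7.52% of all. The E2F form TTGGCGC shares the letters TTGG with a reversed CCAAT box (ATTGG), so that a few bases can count for both. A match of letters is not a bound site, and no match says only that the letters are not in this window.

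Promoters of 3 replication and 3 mitosis members that were higher in monocytes than in brain microglia are shown here as examples. Each has the 250 bases before the start of transcription, on the gene's own strand, with CHR, CCAAT and E2F letters in capitals. Other members differ from them: Mcm2 and Mcm7 hold CHR letters, Mki67 and Cdk1 hold E2F letters, and Ccne1 holds none of the elements. Mcm5 lies at chr8:75109259-75109508 (plus strand), Mcm6 at chr1:128359706-128359955 (minus strand) and Rrm1 at chr7:102441445-102441694 (plus strand). Top2a lies at chr11:99024190-99024439 (minus strand), Cdc20 at chr4:118437344-118437593 (minus strand) and Ube2c at chr2:164769679-164769928 (plus strand).
Mcm5: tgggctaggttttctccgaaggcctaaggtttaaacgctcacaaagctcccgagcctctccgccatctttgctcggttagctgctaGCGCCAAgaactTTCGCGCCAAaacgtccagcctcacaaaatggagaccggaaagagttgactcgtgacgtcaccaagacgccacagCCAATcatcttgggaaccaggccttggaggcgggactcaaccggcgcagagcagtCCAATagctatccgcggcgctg
Mcm6: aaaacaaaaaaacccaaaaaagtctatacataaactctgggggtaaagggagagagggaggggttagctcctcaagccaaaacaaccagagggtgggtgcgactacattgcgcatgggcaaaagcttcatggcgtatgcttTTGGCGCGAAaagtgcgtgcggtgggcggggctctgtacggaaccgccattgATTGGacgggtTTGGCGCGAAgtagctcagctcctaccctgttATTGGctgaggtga
Rrm1: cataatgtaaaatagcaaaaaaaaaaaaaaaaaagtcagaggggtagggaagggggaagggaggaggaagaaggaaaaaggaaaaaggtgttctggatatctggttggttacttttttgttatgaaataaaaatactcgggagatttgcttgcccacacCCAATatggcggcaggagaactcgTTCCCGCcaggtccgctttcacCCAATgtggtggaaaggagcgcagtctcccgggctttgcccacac
Top2a: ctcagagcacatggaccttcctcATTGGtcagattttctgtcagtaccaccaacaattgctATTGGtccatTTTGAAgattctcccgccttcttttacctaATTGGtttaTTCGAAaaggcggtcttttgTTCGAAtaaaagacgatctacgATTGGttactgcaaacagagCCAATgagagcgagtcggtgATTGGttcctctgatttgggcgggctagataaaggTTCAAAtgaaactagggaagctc
Cdc20: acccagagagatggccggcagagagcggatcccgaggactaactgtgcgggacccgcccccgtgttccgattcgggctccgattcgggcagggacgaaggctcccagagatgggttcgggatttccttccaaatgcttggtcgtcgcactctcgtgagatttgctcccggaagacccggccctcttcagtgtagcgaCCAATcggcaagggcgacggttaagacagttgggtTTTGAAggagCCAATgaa
Ube2c: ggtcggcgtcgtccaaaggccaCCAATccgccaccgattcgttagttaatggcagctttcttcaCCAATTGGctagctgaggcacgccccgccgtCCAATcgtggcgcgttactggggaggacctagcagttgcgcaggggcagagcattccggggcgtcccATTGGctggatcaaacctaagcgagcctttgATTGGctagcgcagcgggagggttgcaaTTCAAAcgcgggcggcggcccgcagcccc
The capitals in Mcm5, Mcm6 and Rrm1 mark E2F and CCAAT letters and no CHR. In Top2a, Cdc20 and Ube2c they mark CHR and CCAAT letters and no E2F.

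The comparison of monocytes with brain microglia spanned the widest range. All 24 mitosis members and 14 of 16 replication members were higher in monocytes, and none was lower (edgeR's quasi-likelihood test, Benjamini-Hochberg adjusted p under 0.05 over 15754 genes). Over all tested genes, 27.4% were called higher in monocytes and 28.5% lower. The median log2 fold change was 6.57 over mitosis members and 2.25 over replication members, against -0.04 over all genes. Every mitosis member kept its call when any single library was left out, and all 24 were also called within lane 3 (3 monocyte against 4 brain libraries), where 12 replication members were. In that lane 3 fit 9067 of 16207 genes were called in either direction. The brain means rest on few reads: the mitosis members together had 168 to 454 counts per brain library, and 0, 3, 6 and 8 of the 24 had a count of 0 in brain libraries 1 to 4, where 3 counts correspond to 0.218 to 0.305 CPM.

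Among cyclins and kinases of mitosis, Ccna2 (cyclin A2) had 165, 109, 175 and 160 CPM in monocytes, against 0.6, 1.22, 0.496 and 0.58 CPM in brain microglia (log2 7.73, SE 0.61; adjusted p = 9.34e-09). Plk1, the Polo kinase of mitotic entry, had 59, 56.3, 48.6 and 51 CPM in monocytes, against 0.343, 0.203, 0.198 and 0 CPM in brain microglia (log2 8.17, SE 0.55; adjusted p = 1.19e-09). Cdk1 itself differed least among mitosis members, with 54.2 to 79.1 CPM in monocytes and 2.92 to 6 CPM in brain microglia (log2 3.69, SE 0.31; adjusted p = 1.81e-08). The catalytic kinase therefore kept a readable level in brain microglia while its cyclin partners were near the detection limit. Cyclin B1 (Ccnb1) and cyclin B2 (Ccnb2) had at most 1.22 CPM in any brain library, and 30 to 49.2 and 79.4 to 107 CPM in monocytes.

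Kif23, a motor of the central spindle, held the largest fold of the 24. It had 78.5, 71.7, 68.1 and 63.1 CPM in monocytes, against 0.0857, 0.508, 0.0992 and 0 CPM in brain microglia (log2 8.73, SE 0.47; adjusted p = 6.89e-11), and the brain value rests on 7 counts in all. Top2a, which untangles sister chromatids, had 344 to 486 CPM in monocytes, against 0 to 3.77 CPM in brain microglia (log2 8.43, SE 0.62; adjusted p = 3.39e-09). Mki67, whose protein coats mitotic chromosomes, had 356 to 492 CPM in monocytes, against 1.93 to 5.23 CPM in brain microglia (log2 7.14, SE 0.49; adjusted p = 1.46e-09). Ube2c, which charges the anaphase-promoting complex with ubiquitin, and Birc5 (survivin), a partner of Aurora B, rose by 7.71 and 7.69. The groups did not overlap for any of the 24 mitosis members, a pattern that 28.1% of all genes showed with monocytes higher.

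Replication members split into a wide and a narrow set in the same comparison. Rrm2, the regulated subunit of ribonucleotide reductase, had 178, 134, 125 and 180 CPM in monocytes, against 2.49, 0, 0.496 and 0 CPM in brain microglia (log2 7.67, SE 0.65; adjusted p = 2.49e-08). Its partner Rrm1 had 190, 126, 148 and 173 CPM in monocytes, against 48.1, 45.4, 40.2 and 48.3 CPM in brain microglia (log2 1.81, SE 0.14; adjusted p = 1.05e-08). So the subunits of a single enzyme differed from each other in how far their transcripts parted. Cdc6, the loader of the helicase, rose by 6.07 (SE 1.05), Uhrf1, which carries DNA methylation through replication, by 5.29 (SE 0.40) and Ccne1 (cyclin E1) by 5.07 (SE 0.91), all from brain levels under 1.3 CPM.

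The helicase genes parted less. Mcm5 had 129, 118, 97.9 and 130 CPM in monocytes, against 8.83, 5.9, 7.14 and 8.63 CPM in brain microglia (log2 3.96, SE 0.26; adjusted p = 8.4e-10), the widest of the 6 subunits. Mcm6, Mcm2, Mcm7 and Mcm4 rose by 2.70, 2.43, 2.07 and 1.98. Mcm3, from the same ring, had 98, 95.5, 73.1 and 69.7 CPM in monocytes and 74.9, 61.5, 74.4 and 73.3 CPM in brain microglia, which overlap (log2 0.24, SE 0.15; adjusted p = 0.168). Tyms, which makes thymidylate, did not pass either, with 13.4 to 19.9 CPM in monocytes and 8.85 to 15.7 CPM in brain microglia (log2 0.42, SE 0.30; adjusted p = 0.25). Pcna, the sliding clamp of polymerases, rose by 0.63 (SE 0.21; adjusted p = 0.0148), a call lost without monocyte library 1 (log2 0.41, adjusted p = 0.0862) and within lane 3 (0.39). Gins2, a subunit of GINS, rose by 1.01 (SE 0.38; adjusted p = 0.0326) and kept its call in 11 of 16 fits that each left out 1 library (log2 0.82 to 1.35), losing it without monocyte library 1 or 2 or brain library 1, 3 or 4.

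**Figure D3:**
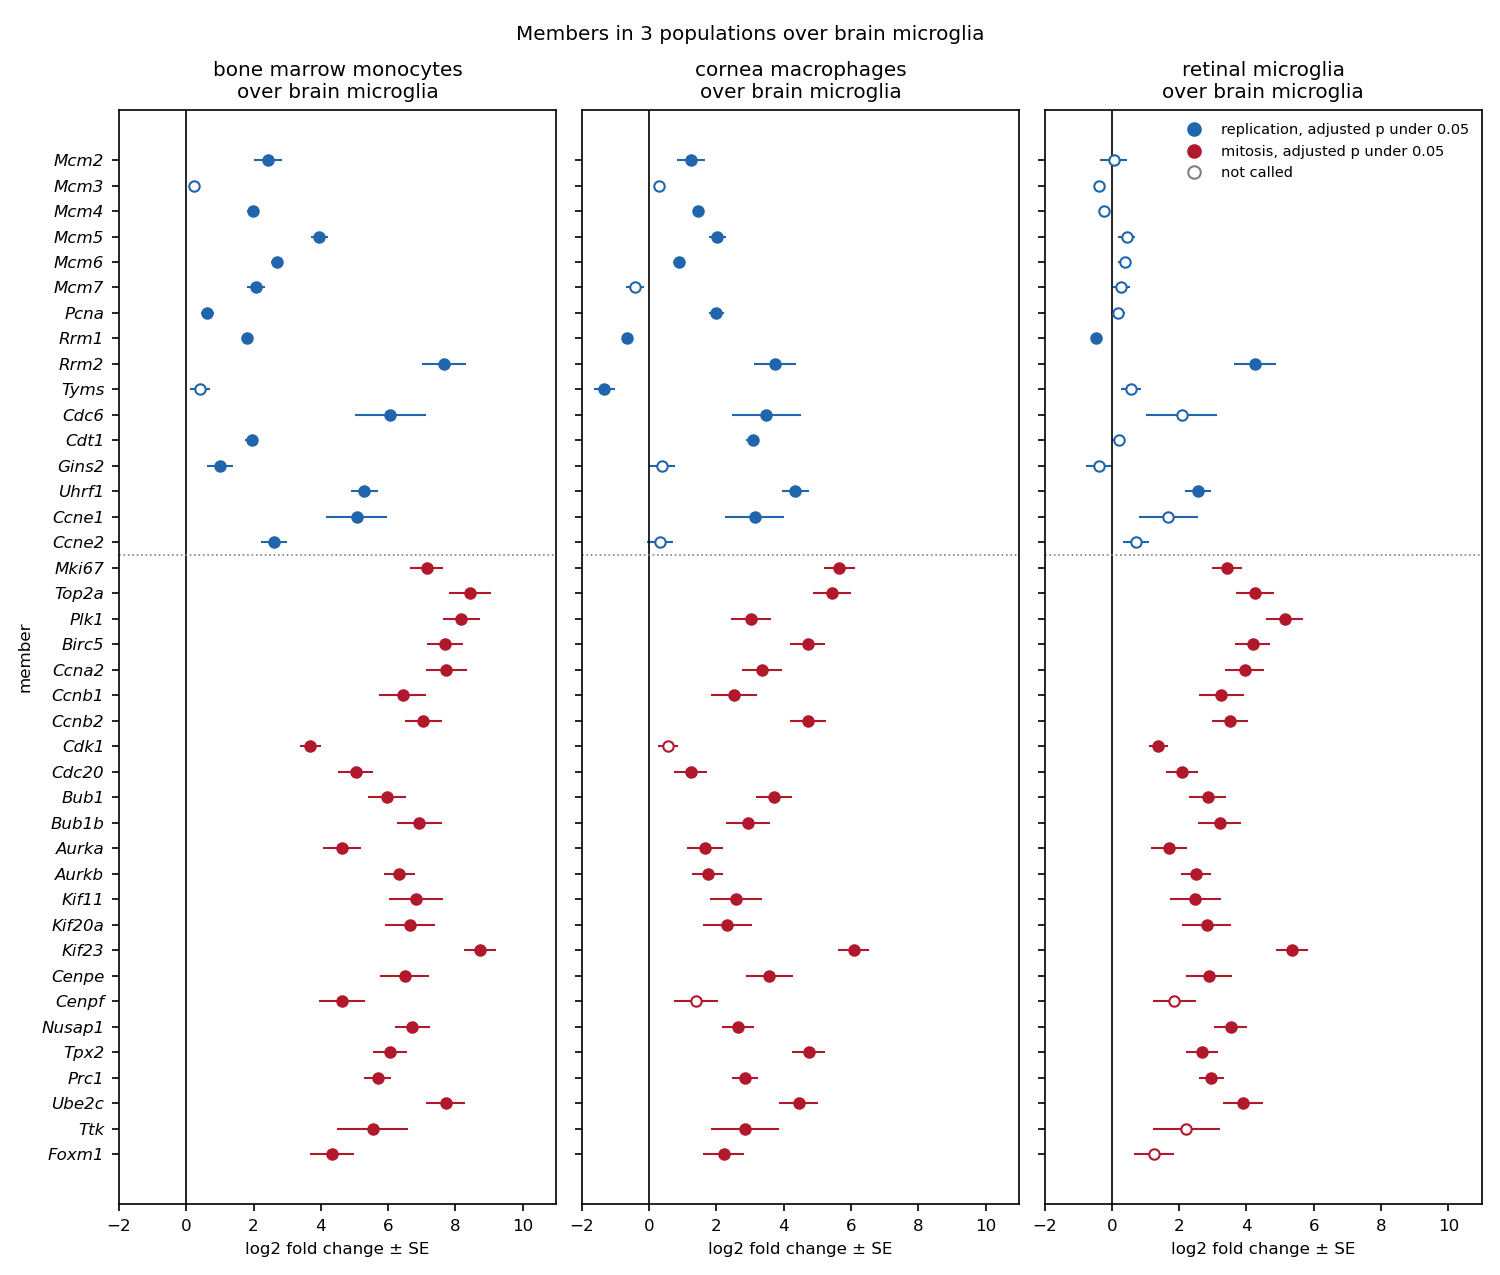
Log2 fold change ± SE of each member in monocytes, cornea macrophages and retinal microglia over brain microglia, with filled points for an adjusted p under 0.05 and open points otherwise. In the right panel 21 of 24 mitosis members but only 2 of 16 replication members (Rrm2 and Uhrf1) lie to the right of 0 as called.

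Retinal and brain microglia differed in mitosis members but hardly in replication members. Of the mitosis members 21 of 24 were higher in retinal microglia and none was lower, with a median log2 fold change of 2.93. Of the replication members 2 of 16 were higher and 1 was lower, with a median of 0.33. Without the 3 libraries whose titles lack the letter b, 19 mitosis and 2 replication members were higher and no replication member was lower. In that fit 1271 of 16931 genes were called in either direction. With all 16 libraries, 6.95% of all tested genes were called higher in retinal microglia and 3.60% lower. Per library, Mki67 had 54.9, 38.1, 24.4 and 13.6 CPM in retinal microglia, against 5.23, 1.93, 2.48 and 2.39 CPM in brain microglia (log2 3.42, SE 0.44; adjusted p = 6.68e-05). Kif23 had 6.07, 9.04, 8.13 and 3.74 CPM in retinal microglia, against 0.0857, 0.508, 0.0992 and 0 CPM in brain microglia (log2 5.35, SE 0.48; adjusted p = 1.62e-06). All retinal levels of both genes were above every brain library, as were those of 20 of the 24 mitosis members, against 10.3% of all genes.

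Among the spindle proteins Nusap1, which bundles microtubules, had 10.3, 21.4, 19.1 and 7.16 CPM in retinal microglia, against 2.06, 1.52, 0.0992 and 1.23 CPM in brain microglia (log2 3.53, SE 0.48; adjusted p = 0.000121). Prc1, which crosslinks the central spindle, had 13.2, 17.3, 16.9 and 9.5 CPM in retinal microglia, against 3, 2.74, 0.397 and 1.16 CPM in brain microglia (log2 2.96, SE 0.38; adjusted p = 6.83e-05). Neither gene had overlapping groups. Ccna2 and Ube2c rose by 3.94 and 3.90, and Cdk1 by 1.38 (SE 0.29; adjusted p = 0.00503). The members that did not pass were Cenpf (log2 1.85, adjusted p = 0.0791) and Ttk (2.22, adjusted p = 0.186), which act at the kinetochore, and the transcription factor Foxm1 (1.26, adjusted p = 0.211). Aurka (Aurora A) and Kif11, the motor that parts the spindle poles, passed with log2 1.70 and 2.48 but kept the call in only 5 and 4 of the 16 fits that each left out 1 library (log2 1.38 to 2.48 and 1.70 to 3.25), and Kif20a lost it without retinal library 2 (adjusted p = 0.0537).

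On the replication side, Rrm2 had 12.4, 16.8, 21.2 and 7.29 CPM in retinal microglia, against 2.49, 0, 0.496 and 0 CPM in brain microglia (log2 4.25, SE 0.62; adjusted p = 0.000244). Uhrf1 had 3.23, 5.18, 5.01 and 4.43 CPM in retinal microglia, against 1.29, 0.203, 1.09 and 0.435 CPM in brain microglia (log2 2.56, SE 0.39; adjusted p = 0.000316). These were the members of the class called higher in retina, and neither overlapped. All 6 helicase subunits lay between -0.38 (Mcm3) and 0.44 (Mcm5), and none passed. Rrm1 ran the other way, with 34.6, 29.2, 31.6 and 35.1 CPM in retinal microglia, against 48.1, 45.4, 40.2 and 48.3 CPM in brain microglia (log2 -0.48, SE 0.14; adjusted p = 0.0379). That call was kept in 9 of 16 fits that each left out 1 library (log2 -0.54 to -0.43) and was lost without each of the retinal libraries in turn, without brain library 1, 2 or 4, and under total-count scaling, which leaves 2 replication members higher and 0 lower.

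Lane and population coincide for these 2 populations, so no comparison within a lane exists for them. When lane was added to the model, where only cornea and monocyte libraries inform it, 11 of the 21 mitosis members stayed higher in retinal microglia, against 2.01% of all genes called higher in that fit, in which 463 of 15754 genes were called in either direction. They were Mki67 (2.61), Top2a (3.57), Plk1 (4.69), Birc5 (3.85), Ccnb2 (3.84), Bub1 (3.19), Kif23 (5.29), Nusap1 (2.93), Tpx2 (2.77), Prc1 (3.21) and Ube2c (2.91) on the log2 scale. Those that of the 21 that did not pass in it were Ccnb1 (2.99), Bub1b (2.90), Ccna2 (2.75), Aurka (2.22), Aurkb (1.95), Kif11 (1.59), Cdc20 (1.53), Kif20a (1.51), Cenpe (1.43) and Cdk1 (1.22). Rrm2 (4.14) and Uhrf1 (2.36) stayed higher. The lane term itself, lane 2 over lane 3, was positive for 17 of 24 mitosis members (median log2 0.39) and 13 of 16 replication members (median 0.17), against a median of 0.09 over all genes. No member passed in it, but only 6 of 15754 genes (0.0381%) did. Retinal library 4 was lowest in 16 of 24 mitosis members and held the most photoreceptor marker (6865 CPM), library 2, with 2051 CPM, was highest in 17, and library 3, with the least marker (748 CPM), was highest in 2 and lowest in 4. The part of these markers in the result was not tested.

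Monocytes over cornea macrophages showed 24 of 24 mitosis members higher, with a median log2 fold change of 3.07. Of the replication members 12 were higher and 2 lower (median 1.78). Of all tested genes, 31.1% were called higher and 32.2% lower, with a median of 0. Plk1 parted furthest, at 59, 56.3, 48.6 and 51 CPM in monocytes, against 1.13, 1.11, 2.85 and 0.93 CPM in cornea macrophages (log2 5.14, SE 0.43; adjusted p = 1.7e-08). Aurkb (Aurora B) and Ccna2 rose by 4.59 and 4.37. Mki67 and Tpx2, which activates Aurora A on the spindle, parted least, with log2 1.49 (SE 0.37; adjusted p = 0.00189) and 1.31 (SE 0.39; adjusted p = 0.00725). Within lane 2 (monocyte library 1 against 3 cornea libraries) 22 mitosis and 9 replication members were higher, and within lane 3 (3 monocyte libraries against cornea library 4) 21 and 9 were, where the lone library is assumed to vary like the others. Mki67 lost its call within lane 2 (log2 1.45, adjusted p = 0.0606) and Tpx2 within lane 3 (0.83).

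Pcna and Cdt1 were the replication members that were lower in monocytes. Pcna had 41.6, 32.7, 22.3 and 20.7 CPM in monocytes, against 73.6, 81.8, 69.8 and 79.2 CPM in cornea macrophages (log2 -1.37, SE 0.20; adjusted p = 1.7e-05). Cdt1, the licensing factor that Geminin restrains, had 36.1, 37, 33.1 and 35.1 CPM in monocytes, against 74.3, 85.3, 82.5 and 66.4 CPM in cornea macrophages (log2 -1.13, SE 0.18; adjusted p = 4.2e-05). Neither gene's groups overlapped, and both calls were lost within lane 2 (log2 -0.85 and -1.16), where monocytes have 1 library. A processed copy, Pcna-ps2, held 12980 counts over all libraries, against 8027 for Pcna, so reads of both may have been shared and Pcna is uncertain. The copy had the same order, with 53.2 ± 6.61 CPM in monocytes, 138 ± 15.2 in cornea, 25.9 ± 5.33 in retina and 23.4 ± 3.11 in brain (SD, n = 4). Mcm3 (log2 -0.05, SE 0.15; adjusted p = 0.775) and Gins2 (0.63, SE 0.38; adjusted p = 0.158) did not pass. Uhrf1 (0.94) lost its call without monocyte library 1 (0.75), and Ccne1 (1.93) without monocyte library 1 or 3 or cornea library 1, 2 or 3 (1.68 to 2.38 over all fits).

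In cornea macrophages the mitosis transcripts were unevenly filled. Mki67 alone made up 16.9% to 18.2% of the mitosis sum in monocytes, 23.8% to 43.9% in cornea macrophages and 9.83% to 24% in retinal microglia. Its levels were 173, 165, 202 and 70 CPM in cornea libraries 1 to 4, while Plk1 had 1.13, 1.11, 2.85 and 0.93 CPM and Ccnb1 3.97, 3.15, 2 and 2.06 CPM in the same libraries. Cornea library 4, the cornea library of lane 3, was lowest in 13 of 24 mitosis members. Cenpf, a protein of the outer kinetochore, had 3.86, 4.86, 11.5 and 0.0664 CPM in the cornea libraries.

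Cornea macrophages over retinal microglia gave calls in both directions in each class. Of the replication members 8 of 16 were higher and 2 lower in cornea macrophages (median log2 fold change 0.98), and of the mitosis members 5 of 24 were higher and 2 lower (median 0.02). Over all tested genes 30.9% were called higher and 35.1% lower, with a median of -0.12, so the share of mitosis members called was below the background. The split depends on scaling: with total counts in place of TMM, replication members gave 5 higher and 5 lower, and mitosis members 2 higher and 8 lower, with medians of 0.18 and -0.76. Cdt1 had 74.3, 85.3, 82.5 and 66.4 CPM in cornea macrophages, against 9.55, 13.4, 12.6 and 6.52 CPM in retinal microglia (log2 2.88, SE 0.19; adjusted p = 1.04e-09). Pcna (1.81), Uhrf1 (1.79), Mcm4 (1.68) and Mcm5 (1.6) were also higher in cornea. Tyms was lower, with 3.06, 2.39, 6.15 and 6.98 CPM in cornea macrophages, against 13.4, 19.2, 16.5 and 20.7 CPM in retinal microglia (log2 -1.90, SE 0.31; adjusted p = 4.72e-05).

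Within the mitosis class the genes called in this comparison pulled apart. Mki67 (log2 2.23, SE 0.38; adjusted p = 6.45e-05) and Tpx2 were higher in cornea. Tpx2 had 27.6, 32, 41.1 and 48.7 CPM in cornea macrophages, against 13.3, 7.33, 7.59 and 8.09 CPM in retinal microglia (log2 2.05, SE 0.40; adjusted p = 0.000269). Plk1 was lower, with 1.13, 1.11, 2.85 and 0.93 CPM in cornea macrophages, against 6.23, 10.2, 6.41 and 3.42 CPM in retinal microglia (log2 -2.11, SE 0.40; adjusted p = 0.000207). These 3 calls held when any single library was left out. Those of Top2a (1.17), Ccnb2 (1.19), Kif23 (0.72) and Cdk1 (-0.82) did not, and neither did those of Mcm2 (1.19), Mcm6 (0.51) and Mcm7 (-0.71): Ccnb2 fell to 0.85 without cornea library 4, Mcm2 to 0.95 without cornea library 2 and Cdk1 to -0.59 without retinal library 3. Top2a lost its call without cornea library 1 or 2 or retinal library 4 (log2 1.04 to 1.35 over all such fits), Mcm6 without cornea library 1 or retinal library 3 or 4 (0.39 to 0.62), Mcm7 without cornea library 2, 3 or 4 or retinal library 4 (-1.05 to -0.61), and Kif23 kept its call in 6 of 16 fits (0.51 to 0.90). Within lane 2 (3 cornea against 4 retinal libraries) 7 replication and 3 mitosis members were higher, and 1 of each class was lower. In that fit 10144 of 19132 genes were called in either direction.

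Cornea macrophages over brain microglia again showed the mitosis class in 1 direction. Of its members 22 of 24 were higher and none lower (median log2 fold change 2.89), and of the replication members 10 of 16 were higher and 2 lower (median 1.35), against 33.8% of all genes called higher and 33.1% lower. With total counts the replication split was 8 higher and 4 lower. Kif23 parted furthest, with 12.4, 10.6, 9.92 and 11.8 CPM in cornea macrophages, against 0.0857, 0.508, 0.0992 and 0 CPM in brain microglia (log2 6.08, SE 0.47; adjusted p = 5.8e-09), followed by Mki67 (5.65, SE 0.46) and Top2a (5.43, SE 0.57). Cdk1 had 7.03, 8.27, 5.46 and 7.84 CPM in cornea macrophages, against 2.92, 6, 4.86 and 5.66 CPM in brain microglia (log2 0.56, adjusted p = 0.104), and overlapped. Cenpf did not pass either (1.40, adjusted p = 0.0667). Uhrf1 (4.35), Rrm2 (3.75), Cdc6 (3.49) and Cdt1 (3.08) rose in the replication class, while Tyms (-1.33) and Rrm1 (-0.66) were lower in cornea. The calls of Cdc20, Aurka, Kif20a and Ttk ended when single libraries were left out (Aurka without cornea library 4, log2 1.05, Kif20a without cornea library 3, log2 1.82, Cdc20 without cornea library 2 or 3 or brain library 2, 3 or 4, log2 0.90 to 1.54, and Ttk without cornea library 4 or brain library 2, 3 or 4, log2 2.38 to 8.59). Within lane 3, where cornea has library 4 alone, 15 mitosis members were higher and 1, Cenpf, was lower.

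In monocytes over retinal microglia all 24 mitosis and 14 of 16 replication members were higher and none lower, with medians of 3.37 and 2.24, against 27.1% of all genes called higher and 32.2% lower and a median of -0.12. Kif11 (4.35), Top2a (4.17), Aurkb (3.84) and Kif20a (3.83) were among the widest, and Cdk1 (2.31) was the narrowest mitosis member. Mcm5 had 129, 118, 97.9 and 130 CPM in monocytes, against 8.2, 14.7, 12.5 and 6.12 CPM in retinal microglia (log2 3.52, SE 0.25; adjusted p = 2.97e-09). Pcna (0.44, SE 0.20; adjusted p = 0.0713) and Tyms (-0.15, SE 0.30; adjusted p = 0.688) did not pass. Within lane 2 (monocyte library 1 against 4 retinal libraries) all 24 mitosis members and 13 of the 14 replication members kept their calls, Gins2 lost its call (1.66, adjusted p = 0.0571) and Pcna gained one (0.92, adjusted p = 0.0316). Pcna also passed with the lane as a term (0.65, adjusted p = 0.0341). Set against the mean of the other 3 populations, monocytes were higher in 24 of 24 mitosis and 14 of 16 replication members, and none was lower, against 29.6% of all genes called higher and 29.4% lower, and Mcm3 and Pcna did not pass. Among the 14, Tyms (log2 0.67) lost its call without monocyte library 1 (0.55, adjusted p = 0.101) and without the 3 libraries whose titles lack the letter b, and its mean was lower in monocytes (15.8 CPM) than in retinal microglia (17.5 CPM).

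Libraries of a population also moved as a whole. Monocyte library 1 was above its population's mean in all 24 mitosis and all 16 replication members and highest in 19 of the 24. It was the monocyte library of lane 2 and held the most progenitor, granulocyte and erythroid marker (1040, 10121 and 2526 CPM). Without it all 24 mitosis members kept their calls in every comparison of monocytes. The part of lane and of these markers was not tested.

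Genes of the same processes outside the 40 were counted too. Of 45 other replication genes, 34, 31 and 33 were higher in monocytes over cornea, retina and brain and 2, 0 and 1 were lower, with medians of 1.62, 1.12 and 1.50. Of 48 other mitosis genes, 45, 46 and 46 were higher and 1, 1 and 0 lower, with medians of 2.84, 2.97 and 5.27. All tested genes gave shares of 31.1%, 27.1% and 27.4% higher and 32.2%, 32.2% and 28.5% lower in these 3 comparisons. In retinal over brain microglia 7 of the 45 and 25 of the 48 were higher, and 0 and 1 lower, against 6.95% of all genes called higher and 3.60% lower. In cornea macrophages over retinal microglia 7 of the other replication genes were higher and 16 lower (median -0.51), and 11 of the other mitosis genes were higher and 6 lower (median -0.05), against 30.9% of all genes called higher and 35.1% lower. In cornea macrophages over brain microglia 13 of the other replication genes were higher and 13 lower (median -0.10), and 35 of the other mitosis genes were higher and 3 lower (median 2.30), against 33.8% of all genes called higher and 33.1% lower.

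Regulators of the entry into the cycle differed between populations by member of a family. The D cyclins, which activate Cdk4 and Cdk6, each had another place. Ccnd3 (cyclin D3) had 257, 243, 267 and 264 CPM in monocytes and 7.75 ± 2.51, 16 ± 0.871 and 17.8 ± 2.89 CPM in cornea macrophages, retinal microglia and brain microglia (SD, n = 4; log2 5.05, 4.01 and 3.86 for monocytes over each; adjusted p = 2.3e-12, 2e-11 and 2.65e-11). Ccnd2 (cyclin D2) had 0.284 to 2.89 CPM in monocytes (log2 -6.38 over cornea macrophages). It had 139, 160, 88.3 and 161 CPM in cornea macrophages, against 0.0789 to 1.4 CPM in retinal microglia and 0 to 0.694 CPM in brain microglia (log2 7.45 and 9.35 for cornea over each; adjusted p = 5.87e-08 and 3.23e-08). Ccnd1 (cyclin D1) had 0.142 to 0.994 CPM in monocytes, against 10.5 to 19.6 CPM in cornea macrophages, 15.3 to 53.3 CPM in retinal microglia and 11.7 to 26.3 CPM in brain microglia (log2 -4.47, -5.41 and -5.02). Monocyte libraries lay above all others for Ccnd3 and below all those of the other 3 populations for Ccnd1, whose ranges in those 3 overlapped, and cornea libraries lay above all others for Ccnd2.

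Inhibitors of the cyclin-dependent kinases parted in the same manner. Cdkn1a, which encodes the inhibitor p21, had 11.3 to 19.9 CPM in monocytes (log2 -5.62 over cornea macrophages, SE 0.26; adjusted p = 8.48e-12). It had 894, 812, 611 and 724 CPM in cornea macrophages, against 8.6, 9.28, 7.81 and 4.55 CPM in retinal microglia and 5.4, 3.46, 5.65 and 6.09 CPM in brain microglia (log2 6.66 and 7.19, SE 0.27 and 0.28; adjusted p = 2.34e-12 and 1.15e-12). Cdkn2b (p15) had 26.7 to 34.2 CPM in cornea macrophages, against at most 0.966 CPM in retinal microglia and 2.28 CPM in brain microglia (log2 5.70 and 4.23). Cornea libraries thus held the highest level of these inhibitors together with Cdk6, at 504, 548, 573 and 763 CPM in cornea macrophages, against 40.8 to 74.7 CPM in retinal microglia and 49 to 85.5 CPM in brain microglia (log2 3.24 and 3.14). Cdkn2d (p19) and Cdkn2c (p18) were instead highest in monocytes, with 111 to 119 and 37.2 to 52.7 CPM, against 6.45 to 8.83 and 4.27 to 6.4 CPM in brain microglia (log2 3.91 and 3.10). The cornea libraries, digested at 37 °C, also held keratocyte and epithelial transcripts, whose part in these levels was not tested.

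Factors that drive or restrain the 2 classes are the E2F, pocket protein and MuvB genes. Of 19 such genes, 12, 13 and 10 were higher and 4, 2 and 2 lower in monocytes over cornea, retina and brain. The shares over all tested genes were 31.1%, 27.1% and 27.4% higher and 32.2%, 32.2% and 28.5% lower. E2f2, an activator, had 197, 222, 183 and 178 CPM in monocytes, against 3.18, 1.02, 4.15 and 3.26 CPM in cornea macrophages (log2 6.06, SE 0.49; adjusted p = 1.14e-08), 8.41 to 17.6 CPM in retinal microglia (4.08) and 0.992 to 9.86 CPM in brain microglia (5.27). E2f8, a repressor of the E2F family, had 39.5 to 43.1 CPM in monocytes, against 0 to 0.407 CPM in brain microglia (8.72), and 1.77 to 6.1 CPM in retinal microglia (log2 4.93 for retina over brain, SE 0.78; adjusted p = 0.000516). Mybl2 (B-Myb), which joins MuvB at mitosis genes, had 8.77 to 14.2 CPM in monocytes, against 0 to 0.508 CPM in brain microglia (6.48), and rests on 5 counts in brain. Rbl1 (p107) had 86.5 to 129 CPM in monocytes, against 9.64 to 16 CPM in cornea macrophages (2.93), 19.9 to 35.8 CPM in retinal microglia (1.76) and 31.8 to 48.1 CPM in brain microglia (1.29). Myc, which promotes growth, ran against the members, with 2.63 to 6.6 CPM in monocytes, against 45.2 to 54.5 CPM in cornea macrophages (-3.45), 52.1 to 64.4 CPM in retinal microglia (-3.65) and 31.1 to 43 CPM in brain microglia (-2.98).

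**Figure D4:**
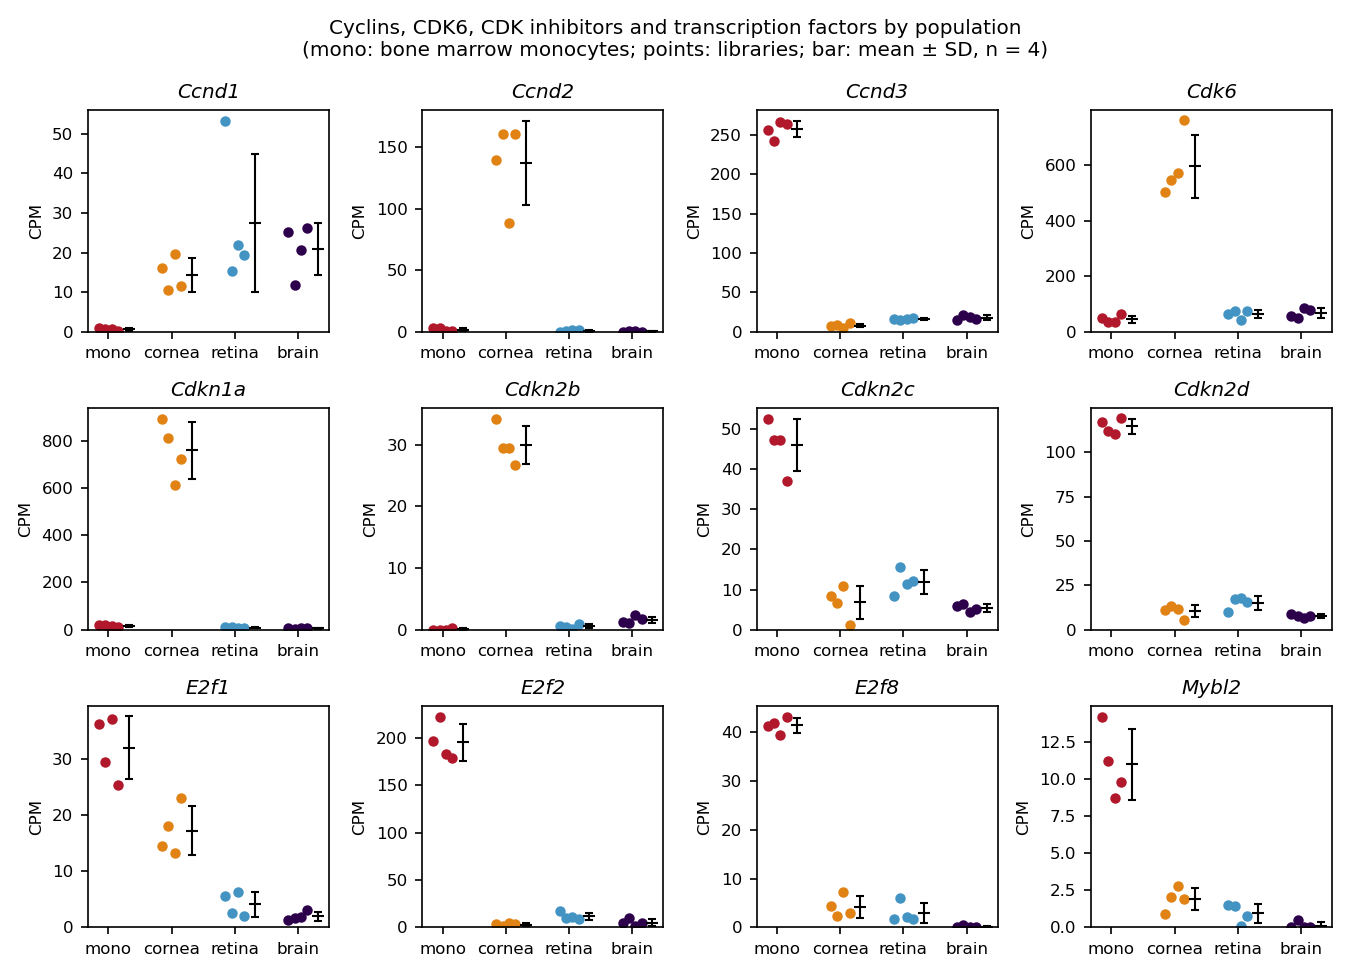
Levels (CPM, axes from 0) of 12 regulators of the cell cycle in 4 libraries of each population, with the mean ± SD beside the points. Ccnd3, Cdkn2c, Cdkn2d, E2f2, E2f8 and Mybl2 are highest in monocytes, and Ccnd2, Cdk6, Cdkn1a and Cdkn2b in cornea macrophages.

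Some members share exon sequence with a gene on the opposite strand in the GENCODE vM21 annotation (GRCm38), and without a stated strand setting their reads cannot be told apart from those of the neighbour. These are Mcm7 (Ap4m1 and Cops6), Gins2 (Gse1, 2758 bases), Ccne2 (Ints8, 609 bases), Ccna2 (Exosc9, 510 bases), Cdc20 (Elovl1), Kif20a (Cdc23, 1271 bases), Nusap1 (Oip5), Prc1 (Rccd1, 911 bases), Plk1 (Gm44985, 156 bases) and Ube2c (Tnnc2, 592 bases, which had 0 counts in every library). Ccnb2 has a copy, Ccnb2-ps, with at most 96 counts in a library.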

How the data were processed

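RNA was sequenced from 16 libraries of 4 sorted mouse populations. The authors deposited raw read counts per gene entry, and per the submitters' processing notes CASAVA 1.8.2, Subread, featureCounts and limma were used with build GRCm38.p4. Which tool did which step, and the annotation, strand and multi-match settings, are not given in the sources here. The extraction text describes another tissue, so the kit is uncertain too.

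Counts were tested with edgeR 4.0.16 (R 4.3.3) by the quasi-likelihood test over all 16 libraries, with TMM scaling and population as the only term. Genes passing filterByExpr with a minimum count of 10 were kept, which left 15754 of 45664 entries, of which 16739 were 0 throughout. Adjusted p-values are Benjamini-Hochberg over all tested genes, and a call needs an adjusted p under 0.05. Date-like entries (27) held at most 0.223% of a library's counts. The SE was taken as the size of the log2 fold change over the square root of F. CPM use TMM-scaled library sizes, and log2 CPM a prior count of 2. Alternatives were DESeq2 1.42.0, limma 3.58.1 voom, other scalings, filters and sample sets. No pair of libraries agreed within sampling noise. The test was checked on simulated data.

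The members, the gene lists and the rule for named genes were chosen with earlier results of these data known. By that rule the text may name, per comparison and class, the called members with the lowest adjusted p or largest change, those against the class direction and those that did not pass, with the leading genes of other lists and any cyclin, CDK inhibitor, RB, E2F or DREAM gene. Members beyond it are named to account for all, after their values were seen. Promoters came from RefSeq on GRCm38.p6.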

Additional observations from a re-analysis of the deposited data

Results flagged for a closer look

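Of 168 sets of 4 libraries (each member in each population, and the summed level of each class), 13 held a library that stood apart from the other 3 by Dixon's gap test at the 95% level, where chance alone gives about 5%. In brain microglia, library 1 had 5.23 CPM of Mki67 (others 1.93 to 2.48), 3.77 CPM of Top2a (others 0 to 0.61) and 1.8 CPM of Ttk (others 0). Library 2 of the same population had 61.5 CPM of Mcm3 (others 73.3 to 74.9) and 1.22 CPM of Ccna2 (others 0.496 to 0.6), and library 4 had 14.4 CPM of Mcm4 (others 19.9 to 20.9). In retinal microglia, library 2 had 10.5 CPM of Cdc20 (others 3.10 to 3.99) and 14.9 CPM of Ccne2 (others 4.42 to 6.12), and library 1 had 13.3 CPM of Tpx2 (others 7.33 to 8.09). In cornea macrophages, library 1 had 9.07 CPM of Mcm7 (others 4.12 to 4.6) and library 3 had 2.85 CPM of Plk1 (others 0.93 to 1.13). In monocytes, library 1 had 71.9 CPM of Ube2c (others 45.9 to 48.6) and library 2 had 19.8 CPM of Ttk (others 22.5 to 22.7).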

How the results depend on the processing

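The titles of monocyte and brain libraries 3 and 4 share 2 number ranges. The deviations of the libraries that share a range had a Pearson r of 0.023 across 15754 genes, which are not independent. This r rests on a single difference between libraries per population and cannot show what a shared range means. With a replicate block for these ranges, chosen after seeing the data, 24 mitosis and 14 replication members stayed higher and 0 were lower in monocytes over brain, and 8575 genes were called against 8817 without it. In monocytes over each other population the 24 mitosis calls held in every scaling, tool and filter tried and in every fit without 1 library. Total-count scaling moved the median of all genes by 0.67 (monocytes over cornea), -0.12 (monocytes over retina), -0.79 (cornea over retina), -0.67 (cornea over brain) and 0.12 (retina over brain) on the log2 scale. It gave 5 replication members higher and 5 lower and 2 mitosis members higher and 8 lower in cornea over retina, and 4 replication members lower in cornea over brain. In cornea over retina, 1 replication member was lower with only the 2 populations, with the lane as a term and within lane 2. There 3 mitosis members were higher without the 3 libraries whose titles lack the letter b and within lane 2, and 1 was lower in those settings, with limma voom and with only the 2 populations. Leaving out 1 library gave 1 to 2 replication members lower, and 3 to 6 mitosis members higher and 1 to 4 lower. Within lane 2, 0 replication members were lower in monocytes over cornea. Within lane 3, 1 replication and 1 mitosis member were lower in cornea over brain. In retina over brain, 0 replication members were lower with total counts, limma voom, no filter, only the 2 populations, the lane as a term and without those 3 libraries (0 to 1 without any single library), and 11 mitosis members were higher with the lane as a term. The replication minus mitosis median became -0.57 (monocytes) and 1.52 (cornea) per kb, and 1.10 (cornea) and 0.40 (retina) as a mean over members.

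Signs turned for Mcm3 in monocytes over cornea (0.62 with total counts, 0.23 within lane 2, -0.13 to 0.038 without 1 library) and Tyms in monocytes over retina (0.17 within lane 2). With total counts they turned for Mcm3 (-0.12), Mcm6 (-0.28) and Kif23 (-0.059) in cornea over retina, Cdk1 (-0.11) in cornea over brain and Pcna (0.083; -0.32 to 0.042 without 1 library) in monocytes over the mean of the others. Within lane 3 they turned for Mcm2 (-0.43), Kif20a (-0.77) and Cenpf (-4.66) in cornea over brain. With the lane as a term they turned for Cenpf in cornea over brain (-0.37) and in retina over brain (-0.035). The cause was not tested. Depth limits the brain values, where many mitosis members had few or no counts.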
